A study of Mus musculus with 6 samples.

Results

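The apoptosis and p53 target genes are a set of 33 genes that carry, sense or set off programmed cell death, and all 33 were found by their gene symbol among 47643 genes in the deposited tables of mouse pancreatic islet RNA sequencing. Transgenic mice (TG, 3 libraries) carried a transgene that expresses miR-203, a microRNA, in beta cells, and wild-type mice (WT, 3 libraries) did not. All mice were labelled male, 10 weeks old and fasted for 12 h before the islets were frozen. The labels do not name the promoter that drives the transgene, and do not state whether each library is a separate animal; p-values therefore measure the spread between these libraries, which may be technical. The comparison of TG with WT asks which of these genes differ in level between the genotypes.

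The p53 protein, encoded by Trp53, is a stress-activated transcription factor that is kept low by the ubiquitin ligase Mdm2, itself a p53 target. The BCL-2 family sets the threshold of mitochondrial death: BH3-only proteins such as Bim (Bcl2l11), Puma (Bbc3) and Noxa (Pmaip1) bind the survival proteins and release Bax and Bak1, which open the outer mitochondrial membrane so that Apaf1 and caspase-9 assemble. Death receptors such as Fas reach caspase-8 from the cell surface. Apoptosis of beta cells is a known route of beta-cell loss in diabetes, and p53 and the BCL-2 family are largely controlled at the protein level, which RNA sequencing does not measure.

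MicroRNAs pair with messenger RNAs mainly through their seed, so the mature sequence and its matches in the set are shown to let each gene below be read beside them. Mature miR-203-3p (chr12:112130927-112130948, plus strand, GRCm38.p6, from RefSeq) is 22 bases long, with its seed, bases 2 to 8, in capitals.
mmu-miR-203-3p: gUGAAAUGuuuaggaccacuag
The DNA match of that seed is CATTTCA, and it was searched on the sense strand in the longest annotated 3′ UTR of each gene. Of the 32 tested genes of the set, 9 held a match (28.1%), against 17.2% of 13840 tested genes with a 3′ UTR. The UTRs of the set were longer, with a median of 1764.5 bases against 1167.5, and per kilobase the set held 0.158 matches against 0.132. In 4 of these genes, Plk2, Aen, Bmf and Tnfrsf10b, an A followed the match (12.5%, against 5.03% of all those genes), and those windows are printed with that of Bcl2l11, whose level is described below; capitals mark the match.
Plk2 (chr13:110400795-110400823, plus strand): tttatgttgacCATTTCAaactcttggca
Aen (chr7:78908471-78908499, plus strand): gtcttgagatgCATTTCAagatggtacac
Bmf (chr2:118529152-118529180, minus strand): ggagccacagtCATTTCAagttccctggg
Tnfrsf10b (chr14:69783517-69783545, plus strand): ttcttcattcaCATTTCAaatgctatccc
Bcl2l11 (chr2:128159398-128159426, plus strand): actggccaggtCATTTCAggagcaaggag
A match is a string of letters, and binding was not measured. Of the 9 genes with a match, 5 had higher and 4 lower fitted levels in TG, with a median log2 fold change of 0.21; of the 23 without one, 16 were higher and 7 lower, with a median of 0.11. Over all tested genes with a 3′ UTR the matched genes had the lower median, with 1130 higher and 1251 lower at -0.016, against 5698 higher and 5761 lower at -0.0024 without a match.

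The p53 consensus decamer, the unit that occurs as a pair in a full p53 response element, was searched in the 250 bases before each transcription start in the RefSeq promoter table (GRCm38.p6). The decamer is its own reverse complement, so 1 search covers both strands. The table held 27 genes of the set, with 39 promoters, and not Pmaip1, Zmat3, Trp53inp1, Bik, Perp or Tnfrsf10b. A match stood before at least 1 start of 7 of the 27 genes (25.9%), against 8.20% of 27025 genes in the table. Genes with more starts had more sequence searched, and these shares were not adjusted for that. A pair within 13 bases was held by 0 of the 27, and by 18 of the 27025 genes (0.0666%). With a pair this rare, the 0 cannot show whether the set lacks full response elements. The 7 matches are shown in capitals. They stood before members known as p53 targets from p53 studies (Mdm2, Bax, Ccng1, Aen, Sesn1), Trp53 itself and Bmf. The p53 targets Plk2, Phlda3, Sesn2 and Eda2r held no match, and neither did Bbc3, Fas or Apaf1. A match thus did not mark the targets of the set as a whole.
Mdm2 (chr10:117710925-117710954, minus strand): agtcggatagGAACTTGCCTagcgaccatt
Bax (chr7:45467080-45467109, minus strand): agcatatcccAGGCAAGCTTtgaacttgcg
Ccng1 (chr11:40755452-40755481, minus strand): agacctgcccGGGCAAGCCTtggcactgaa
Aen (chr7:78895927-78895956, plus strand): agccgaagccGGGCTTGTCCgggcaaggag
Sesn1 (chr10:41887256-41887285, plus strand): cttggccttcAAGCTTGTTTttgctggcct
Trp53 (chr11:69580274-69580303, plus strand): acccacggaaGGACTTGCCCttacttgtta
Bmf (chr2:118544781-118544810, minus strand): cccaagtgaaGGGCTTGCCTcttgccgaat
For Sesn1, Bmf and Aen the match stood before a start inside the gene span, and for the other 4 genes before the span. Response elements elsewhere within the genes or farther upstream were not searched.

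Libraries held 21615905 to 27482339 counts in TG and 20176456 to 24631199 in WT. TG 1, TG 2, WT 1 and WT 2 were deposited in one pair of tables (the first table), TG 3 and WT 3 in another (the second table), and the table is a term of the fit. Reads at the Mir203 locus numbered 170, 164 and 150 in TG 1, TG 2 and TG 3, against 39, 0 and 0 in WT 1, WT 2 and WT 3. The library labelled WT 1 thus held such reads, unlike the other WT libraries, though fewer than any TG library. Their source was not tested. Xist, a transcript of female cells, had 27240 counts in TG 3 and 25145 in WT 3, against 4 to 13 in the other 4 libraries, although all are labelled male. Beta-cell genes such as Ins1 and Ins2 took 5.98%, 20.6% and 6.10% of counts in TG 1, TG 2 and TG 3, against 21.9%, 21.3% and 12.7% in WT 1, WT 2 and WT 3. TG 2 thus lay within the range of all WT libraries on this measure, but below both WT libraries of its own table. From the mean WT log2 level of the same table, the median beta-cell gene lay at -2.30 in TG 1, -0.39 in TG 2 and -1.26 in TG 3. Fewer beta cells and less RNA per cell cannot be told apart in whole islets.

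Levels are CPM, counts scaled by the TMM-adjusted library size, given in the order of libraries 1, 2 and 3, and log2 fold changes are TG over WT with their standard error (SE). None of the 33 genes passed the Benjamini-Hochberg threshold of 0.05 in edgeR, and neither did any of the 16072 genes tested (0%). DESeq2 called 1 gene of the set as higher, Plk2, where it called 3.83% of all genes, and 0 as lower, where it called 0.846%. With limma-voom 0 of all genes passed in either direction. At an unadjusted p under 0.05, 2 genes of the set were higher in TG, Plk2 and Perp, where 9.32% of all genes were, and 1 was lower, Aen, where 4.81% were. The set's fitted values leaned upward, with 21 of 32 genes above 0 against 48.1% of all genes, and a median of 0.14 against -0.015. The TG libraries did not contribute alike. The median gene of the set stood at a log2 distance of 0.15 in TG 1, -0.011 in TG 2 and 0.23 in TG 3 from WT of the same table. Hrk, a BH3-only gene of neurons, had 7, 5 and 6 counts in TG and 1, 0 and 8 in WT, and was the 1 gene left out by the filter on low counts.

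**Figure D1:**
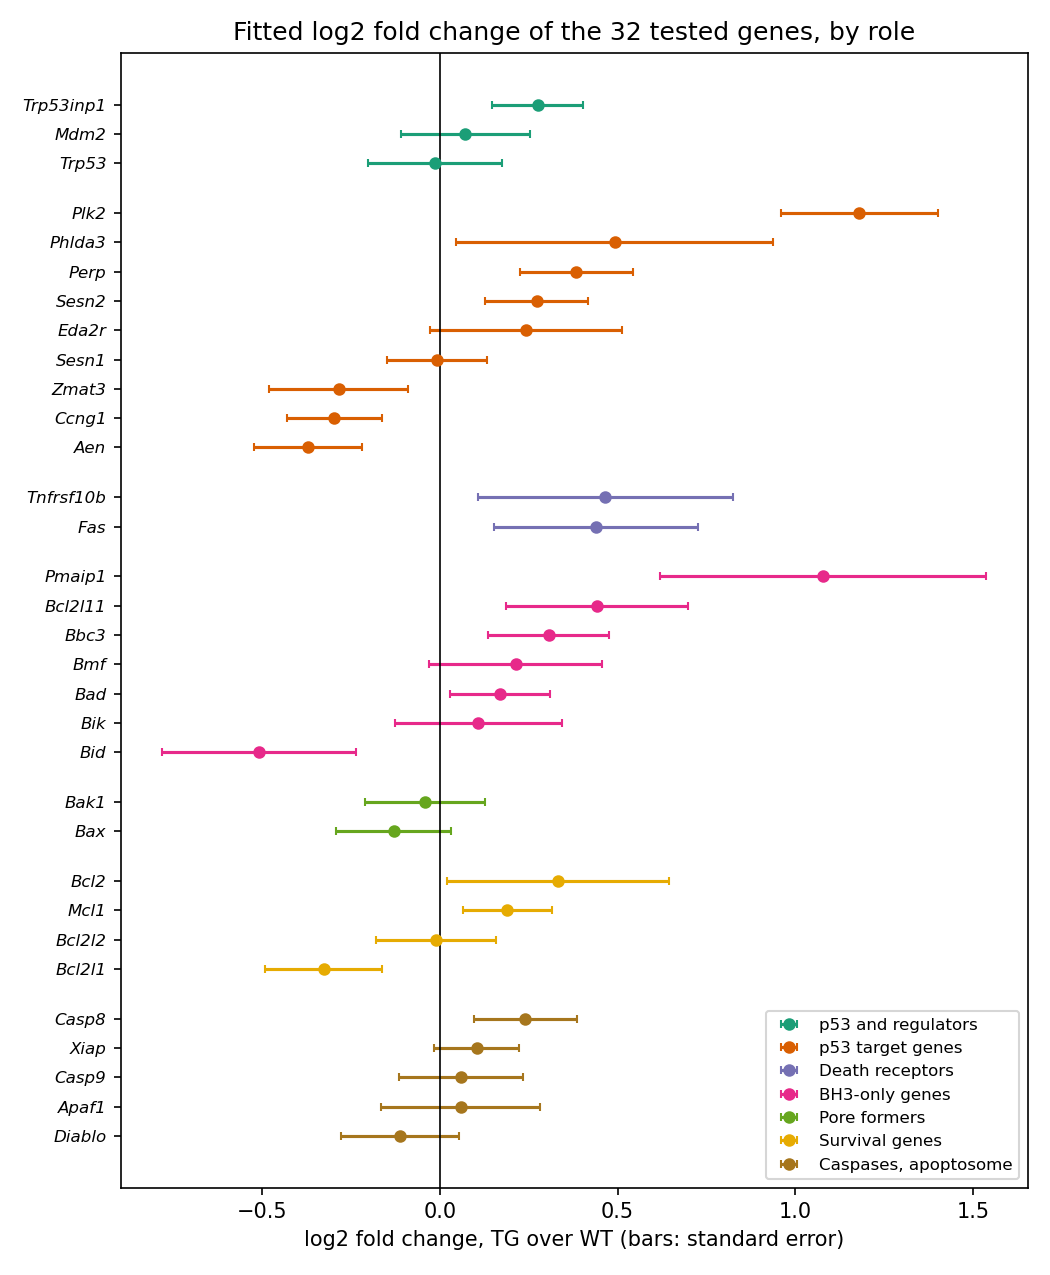
Fitted log2 fold changes (TG over WT, x axis) with standard errors for the 32 tested genes, 3 libraries per genotype, grouped and coloured by role. Plk2 at 1.18 and Pmaip1 at 1.08 lie farthest to the right and Bid at -0.51 farthest to the left.

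Trp53 and Mdm2 did not separate the genotypes. Trp53 (chromosome 11, 69580359 to 69591873) had 43.0, 27.9 and 45.6 CPM in the TG libraries, against 32.4, 38.5 and 46.8 CPM in WT. TG 2 was the lowest library and WT 3 the highest, and the groups overlapped throughout. TG averaged 38.8 ± 9.57 CPM, against 39.2 ± 7.26 CPM for WT (SD, n = 3 each), at a log2 fold change of -0.014 (SE 0.19), whose sign turned with the settings. Mdm2 (chromosome 10, 117688888 to 117710758) had 98.6, 66.2 and 71.3 CPM in TG, against 74.1, 88.6 and 62.9 CPM in WT. Its highest level was in TG 1, but TG 2 lay below 2 of the WT libraries, and the log2 fold change was 0.072 (SE 0.18). Adjusted p in edgeR was 0.982 for Trp53 and 0.891 for Mdm2. Without TG 1 the Mdm2 value was -0.090. Per length, Mdm2 exceeded Trp53 in every library, 1.25 to 1.90 times in TG and 1.07 to 1.84 times in WT. Trp53inp1, which encodes a p53-induced nuclear protein, was at 99.2, 116 and 77.8 CPM in TG and at 91.8, 84.5 and 65.5 CPM in WT. Within each table TG exceeded WT, and the log2 fold change was 0.28 (SE 0.13, unadjusted p = 0.0692, adjusted p = 0.384 in edgeR).

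Plk2 showed the highest fitted value of the set. It encodes a polo-like kinase, is a p53 target in stressed cells and is also known as a serum- and activity-induced gene. Plk2 (chromosome 13, 110395044 to 110400844) had 71.4, 42.6 and 55.5 CPM in the TG libraries, against 28.6, 27.0 and 20.05 CPM in WT. All TG libraries lay above all WT libraries, with TG 2 nearest to them. TG averaged 56.5 ± 14.5 CPM, against 25.2 ± 4.53 CPM for WT (SD, n = 3 each). The log2 fold change was 1.18 (SE 0.22), or 2.27-fold, with an unadjusted p of 0.00115 and an adjusted p of 0.199 in edgeR. Without WT 1, the library with Mir203 reads, it was 1.25 (adjusted p = 0.373 in edgeR). Without TG 2 Plk2 passed in edgeR, with a log2 fold change of 1.40 (SE 0.12, adjusted p = 0.00144). That fit called 8.82% of all genes as higher. DESeq2, which called 3.83% as higher, gave Plk2 an adjusted p of 0.000343, and edgeR without the filter on low counts (4.37% called as higher) one of 1.21e-07. With the first table only, which leaves out both libraries rich in Xist, the log2 fold change was 1.04 (adjusted p = 0.914), and in the second table TG 3 lay 1.47 log2 units above WT 3. The seed match in its 3′ UTR, printed above, is followed by an A.

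Perp was higher and Aen lower at an unadjusted p under 0.05. Perp, a membrane protein of desmosomes and a p53 target, was at 18.05, 16.6 and 13.9 CPM in TG and at 14.4, 12.8 and 10.2 CPM in WT. Each TG library exceeded the WT libraries of its table, while over both tables TG 3 lay below WT 1. The log2 fold change was 0.38 (SE 0.16, unadjusted p = 0.0475, adjusted p = 0.348 in edgeR). Aen, a nuclease that acts in p53-driven apoptosis (chromosome 7, 78895854 to 78911209), had 47.6, 54.7 and 48.7 CPM in TG, against 55.4, 65.0 and 76.0 CPM in WT. The groups did not overlap, with TG 2 just under WT 1. Its log2 fold change was -0.37 (SE 0.15, unadjusted p = 0.0459, adjusted p = 0.344 in edgeR). With the first table only Perp lay at 0.35 and Aen at -0.24, and without WT 1 at 0.46 and -0.46. Aen carries an A-flanked seed match, as Plk2 does, and lay on the other side of 0. These calls before adjustment moved with the settings: with 1 library left out, 1 to 5 genes of the set were higher and 0 to 4 lower. The upper ends came without TG 2, 0 were lower without TG 3, WT 1, WT 2 or WT 3, and 1 was higher without TG 1, TG 3, WT 2 or WT 3. With RLE scaling, the stricter filter, no table term or the first table only, 0 were lower, so Aen was then not under 0.05. In those fits 1.12% to 4.81% of all genes were lower.

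Over the whole set, 2 genes, Plk2 and Pmaip1, had all TG libraries above all WT libraries, where 6.96% of all genes did, and 1, Aen, had all below, where 6.42% did. Within tables, 7 genes had every TG library above the WT libraries of its table (background 13.0%), and 2, Aen and Ccng1, had every one below (background 13.4%). The 7 were Plk2, Pmaip1, Perp, Trp53inp1, Sesn2, Mcl1 and Casp8.

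Other p53 targets pointed both ways. Ccng1, cyclin G1, a classic p53 target, was at 172, 191 and 100.2 CPM in TG and at 208, 229.9 and 128 CPM in WT. Within each table TG lay below WT, and the log2 fold change was -0.30 (SE 0.13, unadjusted p = 0.0639, adjusted p = 0.373 in edgeR). Zmat3, an RNA-binding protein, lay at -0.28 (SE 0.20), and its UTR held 3 seed matches, the most in the set. Sesn2, a sestrin that restrains mTORC1 under stress, was at 117, 93.6 and 203 CPM in TG and at 84.7, 81.0 and 186 CPM in WT, with a log2 fold change of 0.27 (SE 0.14). Its relative Sesn1 lay at -0.0077 (SE 0.14), a value whose sign turned with the settings. Phlda3, an inhibitor of AKT studied in islet cell tumours, was scattered, at 32.2, 11.4 and 22.1 CPM in TG and 8.69, 20.8 and 17.3 CPM in WT. Its log2 fold change of 0.49 (SE 0.45) was -0.051 without TG 1. Eda2r, the ectodysplasin A2 receptor, lay at 0.24 (SE 0.27), and at 0.047 without TG 1. Of the 9 targets in this group, 5 were higher and 4 lower, and 0 passed (adjusted p of 0.199 or more in edgeR).

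**Figure D2:**
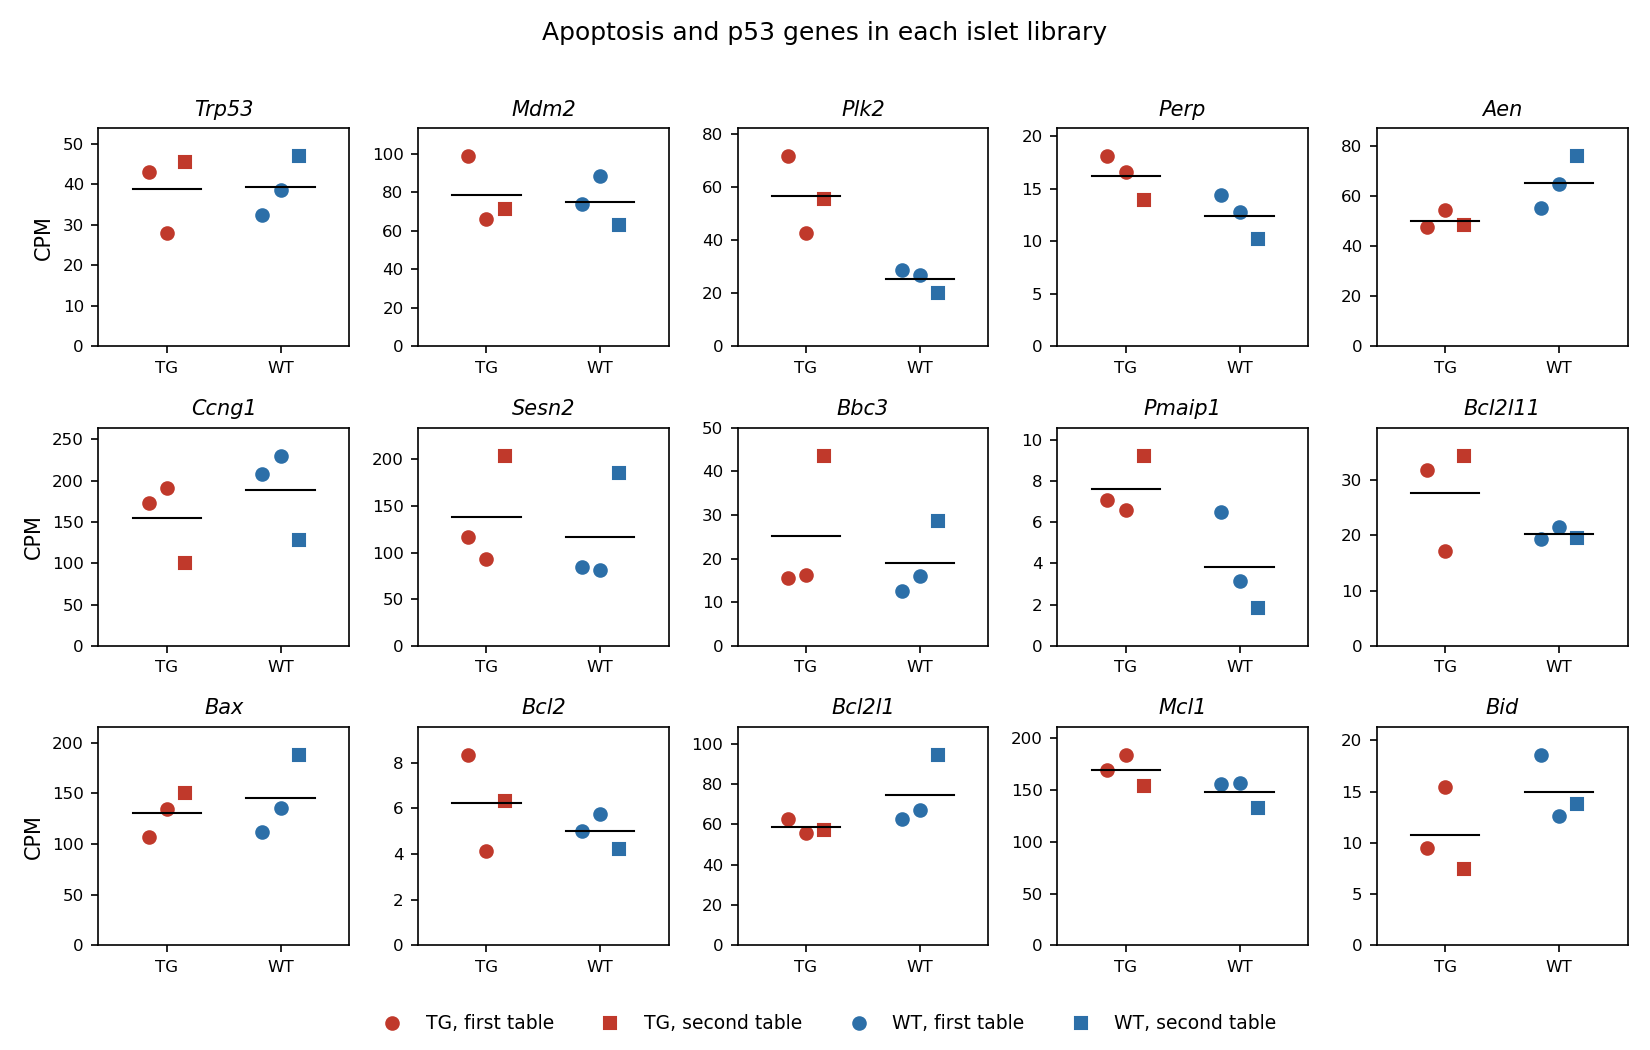
CPM (y axis, from 0) of 15 genes in each TG and WT library; circles are libraries of the first table, squares those of the second, and the line is the mean of 3. Plk2 sits at 42.6 to 71.4 in TG and 20.05 to 28.6 in WT, while Sesn2 and Bbc3 separate the tables more than the genotypes.

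Both death receptors had fitted values above 0 at low levels. Fas was at 5.29, 3.61 and 1.70 CPM in TG and at 3.72, 2.73 and 1.31 CPM in WT, and Tnfrsf10b, the mouse TRAIL receptor, at 7.79, 4.41 and 4.94 CPM in TG and 3.40, 6.51 and 2.80 CPM in WT. The groups overlapped for both. The log2 fold changes were 0.44 (SE 0.29) for Fas and 0.47 (SE 0.36) for Tnfrsf10b, with adjusted p of 0.524 and 0.593 in edgeR.

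Among the BH3-only genes, 6 of the 7 tested had fitted values above 0 and 0 passed. Pmaip1, which encodes Noxa, was at 7.06, 6.59 and 9.22 CPM in TG and at 6.48, 3.17 and 1.84 CPM in WT. TG lay above WT, with TG 2 and WT 1 almost level. The log2 fold change was 1.08 (SE 0.46, unadjusted p = 0.0520, adjusted p = 0.359 in edgeR). Most of it came from the second table, where TG 3 lay 2.28 log2 units above WT 3, against 0.51 (SE 0.41) with the first table only, and without WT 1 the log2 fold change was 1.62. The interaction of table and genotype had an unadjusted p of 0.0482 and an adjusted p of 0.9999 in edgeR, and Pmaip1 was the 1 gene of the set under 0.05 before adjustment, where 2.28% of all genes were. Pmaip1 passed in edgeR without TG 2 and WT 1 together (log2 fold change 1.72, adjusted p = 0.0405, with 6.92% of all genes called as higher). It also passed in edgeR without the filter on low counts (adjusted p = 0.0148, with 4.37% of all genes called as higher).

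Bcl2l11, which encodes Bim, was at 31.7, 17.1 and 34.3 CPM in TG and at 19.4, 21.4 and 19.6 CPM in WT. TG 1 and TG 3 lay above every WT library and TG 2 below every one. TG averaged 27.7 ± 9.26 CPM, against 20.1 ± 1.13 CPM for WT (SD, n = 3 each), with a log2 fold change of 0.44 (SE 0.26, adjusted p = 0.477 in edgeR). Without TG 2, the TG library below every WT library, it passed at 0.70 (SE 0.13, adjusted p = 0.0183 in edgeR). That fit called 8.82% of all genes as higher. With the first table only Bcl2l11 lay at 0.26 (SE 0.32). Bbc3, which encodes Puma, was at 15.6, 16.2 and 43.5 CPM in TG and at 12.7, 15.97 and 28.6 CPM in WT. The second table held its highest level in both genotypes, and the log2 fold change was 0.31 (SE 0.17, adjusted p = 0.461 in edgeR). Bid, the BH3-only protein cleaved by caspase-8, had the lowest fitted value of the set. It was at 9.49, 15.4 and 7.43 CPM in TG and at 18.5, 12.6 and 13.7 CPM in WT, with TG 2 inside the WT range and a log2 fold change of -0.51 (SE 0.27, adjusted p = 0.443 in edgeR). Bad, Bik and Bmf lay at 0.17, 0.11 and 0.21 (SE 0.14, 0.23 and 0.24), and Bmf at 0.0083 without WT 3.

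The pore formers did not separate the genotypes. Bax (chromosome 7, 45461695 to 45466898) shares 12.2% of its GENCODE M21 exon bases with another annotated gene. It had 107, 134 and 150.4 CPM in TG, against 112, 135 and 187 CPM in WT. Their ranges overlapped, and the log2 fold change was -0.13 (SE 0.16, adjusted p = 0.755 in edgeR). Bak1 was at 15.4, 14.6 and 14.9 CPM in TG and 17.3, 16.9 and 12.4 CPM in WT, with a log2 fold change of -0.041 (SE 0.17) that turned to 0.020 without TG 2, to 0.023 without WT 1 and to 0.27 in the second table alone.

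The survival genes differed in level far more among themselves than between genotypes. Per length, in the authors' FPKM, which was scaled separately for each table, Mcl1 was at 42.8 to 51.3, Bcl2l2 (Bcl-w) at 18.5 to 25.7, Bcl2l1 (Bcl-xL) at 11.6 to 22.7 and Bcl2 at 0.430 to 0.867 over the 6 libraries. Mcl1 led and Bcl2 came last in each library, while Bcl2l2 and Bcl2l1 had overlapping ranges. Bcl2l1 (chromosome 2, 152780668 to 152831728), a survival gene that protects mouse beta cells when overexpressed, was at 62.9, 55.6 and 57.1 CPM in TG and 62.6, 67.0 and 94.2 CPM in WT. TG 1 lay between WT 1 and WT 2, and TG 3 lay 0.72 log2 units below WT 3. The log2 fold change was -0.33 (SE 0.16, unadjusted p = 0.0871, adjusted p = 0.414 in edgeR), and -0.13 without TG 3 or without WT 3. Mcl1, a survival protein with a short life, was at 170, 184 and 154 CPM in TG and 156, 157 and 133 CPM in WT. TG again exceeded WT within each table, at a log2 fold change of 0.19 (SE 0.13, adjusted p = 0.531 in edgeR). Bcl2 was at 8.31, 4.13 and 6.31 CPM in TG and 5.02, 5.76 and 4.20 CPM in WT, with TG 2 the lowest library and a log2 fold change of 0.33 (SE 0.31, adjusted p = 0.667 in edgeR), which was 0.042 without TG 1 and 0.60 without TG 2. Bcl2l2 lay at -0.0099 (SE 0.17), with a sign that turned with the settings. The per-length ratio of Bax to Bcl2l1 was 8.95, 12.8 and 13.9 in TG and 9.45, 10.7 and 10.5 in WT, so TG lay on both sides of WT.

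Initiator caspases and the apoptosome had small fitted values. Casp8 was at 19.9, 20.9 and 17.4 CPM in TG and 18.8, 16.6 and 13.9 CPM in WT, with a log2 fold change of 0.24 (SE 0.15). Casp9 and Apaf1, its platform, lay at 0.060 and 0.059 (SE 0.17 and 0.22), with signs that turned with the settings, and Casp9 shares 1.81% of its exon bases with neighbours that include the acinar genes Cela2a and Ctrc. Xiap, which blocks caspases, lay at 0.10 (SE 0.12) and Diablo, which antagonises Xiap, at -0.11 (SE 0.17). Diablo shares 40.9% of its GENCODE M21 exon bases with other annotated genes, so its count is uncertain. Adjusted p in edgeR was 0.494 or more for all 5.

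**Figure D3:**
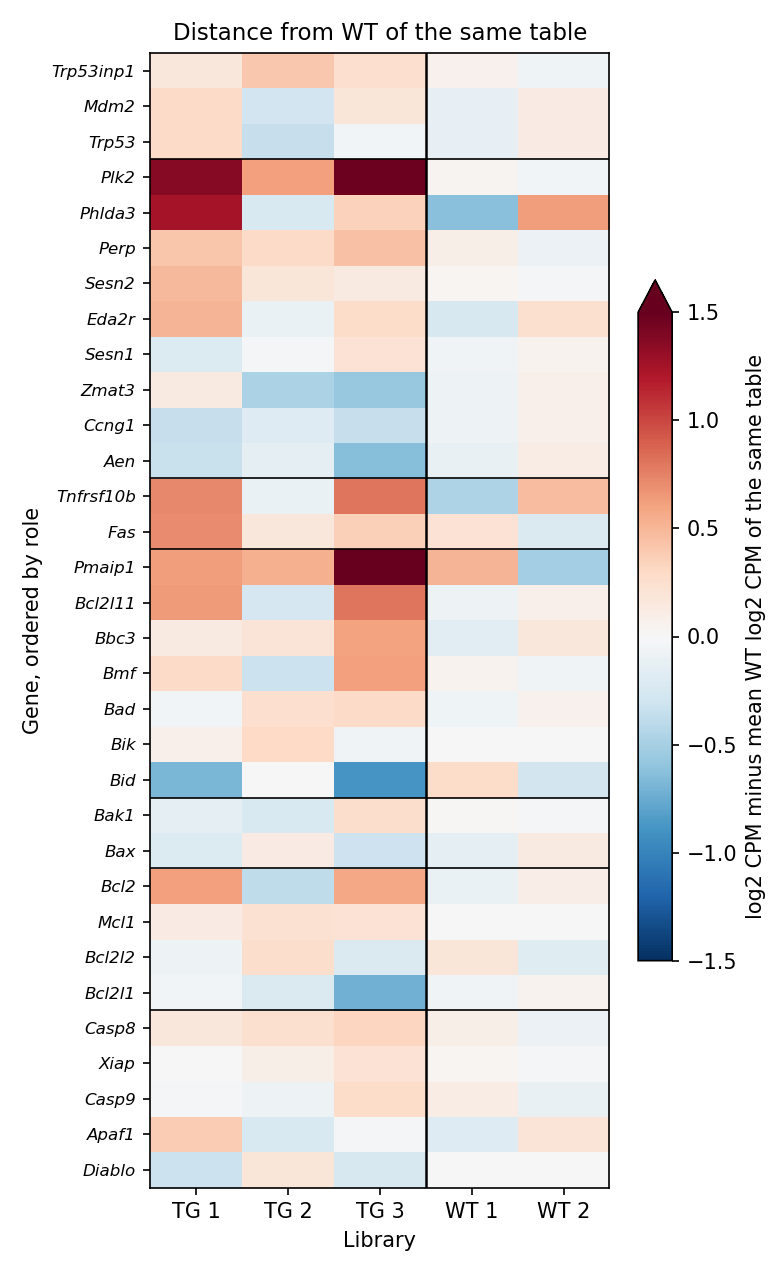
Heat map of log2 CPM minus the mean WT log2 CPM of the same table for the 32 tested genes (rows, by role) in TG 1, TG 2, TG 3, WT 1 and WT 2 (columns); WT 3 is 0 by construction and values above 1.5 take the darkest red. Plk2 is red in every TG column (1.36, 0.61 and 1.47), while Bcl2l11 is red in TG 1 and TG 3 (0.63 and 0.81) and blue in TG 2 (-0.25).

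Several members followed the deposited table, in both genotypes. In the same fit, 6 of the 32 tested genes differed between second and first table at an adjusted p under 0.05 in edgeR, where 9.53% of all genes did. Bbc3 and Sesn2 were higher in the second table, with log2 values of 1.23 (SE 0.17) and 1.06 (SE 0.15). Fas, Eda2r, Xiap and Ccng1 were lower, at -1.34, -1.26, -0.86 and -0.82. Their adjusted p in edgeR ran from 0.0212 to 0.0496. The call rested on several single libraries: without TG 3, WT 1, WT 2 or WT 3 none of the 6 passed, with 2 or 3 genes higher and 4 to 30 lower called among all genes tested. Without TG 1, 2 members passed as higher and 2 as lower. The number of all genes called in that fit, and the calls without TG 2, are not reported here. The table is joined with the Xist difference and with acinar genes, which took 0.0379% of counts in TG 3 and 0.0214% in WT 3, against 0.420% to 0.489% in TG 1 and TG 2 and 0.321% to 0.696% in WT 1 and WT 2. Batch, sex transcripts and acinar RNA cannot be told apart here.

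**Figure D4:**
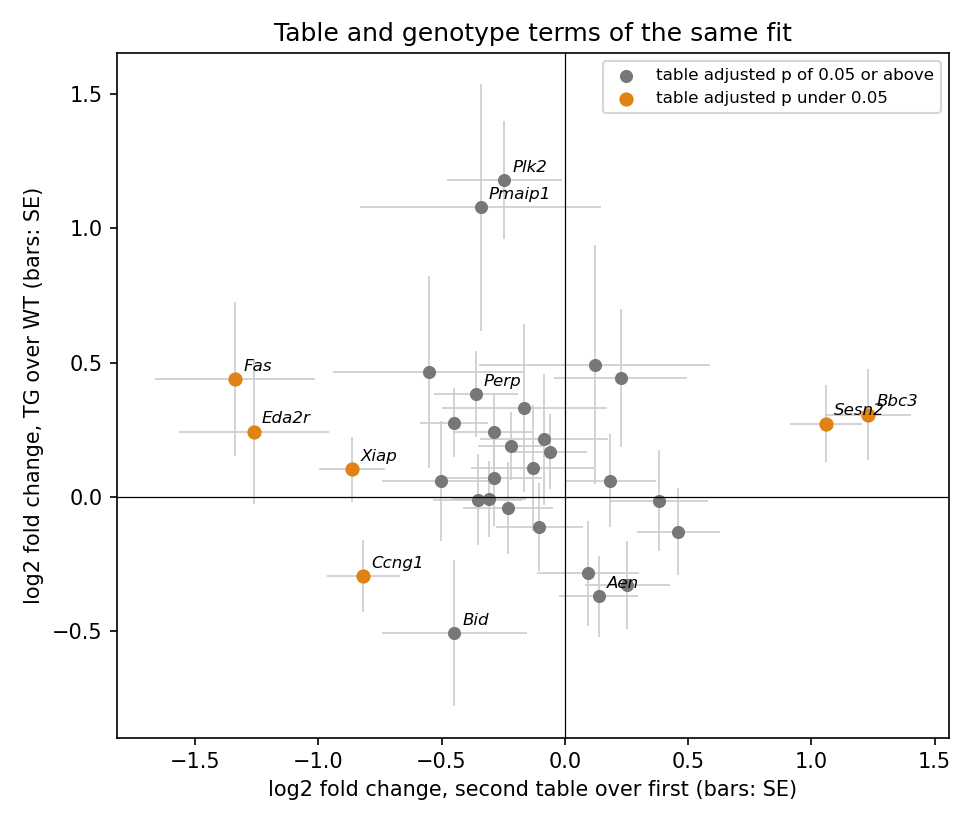
Log2 fold change of the second over the first table (x axis) against that of TG over WT (y axis) for the 32 tested genes, both with standard errors from 1 fit. The 6 orange genes passed for the table (Bbc3, Sesn2, Fas, Eda2r, Xiap and Ccng1) and reach from -1.34 to 1.23 along x, while none passed for the genotype.

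Other genes of the pathway were read from lists of 45 further p53 targets and 41 further apoptosis genes. Of the p53 targets 39 were tested, 19 higher and 20 lower in TG, with a median of -0.025 and 0 past the threshold in edgeR. At an unadjusted p under 0.05, 4 were higher, namely Lif (1.01), Zfp365 (0.90), Trp53i11 (0.82) and Dapk1 (0.59), and 4 were lower, namely Tigar (-0.79), Plk3 (-0.76), Siva1 (-0.72) and Sesn3 (-0.45), all as log2 fold changes, where 9.32% of all genes were higher and 4.81% lower at that p. Tigar, a phosphatase that lowers glycolytic flux, was at 20.2, 31.2 and 20.3 CPM in TG and 39.1, 38.4 and 46.2 CPM in WT, with no overlap. Plk3, a polo-like kinase like Plk2, had 29.5, 39.0 and 42.9 CPM in TG, against 51.5, 37.9 and 121 CPM in WT, where WT 3 was far above the rest. Cdkn1a, the cell-cycle inhibitor p21 and the standard p53 readout, was at 179, 80.2 and 72.1 CPM in TG and 73.3, 159.6 and 127 CPM in WT. Its groups overlapped, at a log2 fold change of -0.17 (SE 0.41, adjusted p = 0.889 in edgeR). Mdm4, the Mdm2 partner that masks p53, lay at -0.27 (SE 0.16).

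Of the further apoptosis genes 36 were tested, 22 higher and 14 lower, with a median of 0.10 and 0 past the threshold in edgeR. At an unadjusted p under 0.05, 5 of the 36 were higher and 2 lower, beside the 9.32% and 4.81% of all genes. The higher genes with the smallest p were Bcl2l14, Bok, Bnip3l and Casp6, at log2 fold changes of 1.76 (SE 0.49), 0.86 (SE 0.26), 0.65 (SE 0.23) and 0.49 (SE 0.18). Bok, a relative of Bax and Bak1, was at 6.78, 4.76 and 6.27 CPM in TG and 3.67, 3.48 and 2.71 CPM in WT, with no overlap. Casp6, an executioner caspase, was at 12.2, 12.0 and 11.7 CPM in TG and 8.04, 9.24 and 8.27 CPM in WT, again apart. The lower genes were Dffb, the nuclease that cuts DNA in apoptosis, at -0.86 (SE 0.26) and Tnfrsf1a, a TNF receptor, at -0.55 (SE 0.19).

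Markers of other islet and pancreas cells are given by the share of counts they took and by their fitted values, of which 0 passed in edgeR. Alpha-cell genes took 2.62% to 5.22% of counts in TG and 1.77% to 2.80% in WT, with 9 of 10 above 0, and delta- and PP-cell genes 1.21% to 4.05% in TG and 0.771% to 0.904% in WT, with 6 of 6 above 0. All 11 tested duct-cell genes of 12 had fitted values above 0, and together took 0.232% to 0.342% of counts in TG and 0.150% to 0.179% in WT. Of 12 stellate and fibroblast genes, 9 were above 0, at 0.0104% to 0.0451% in TG and 0.00944% to 0.0214% in WT. Of 12 endothelial genes, 11 were above 0, at 0.0310% to 0.0682% in TG and 0.0302% to 0.0419% in WT, and of 11 tested myeloid genes 7 were, at 0.0124% to 0.0285% in TG and 0.0101% to 0.0244% in WT. Schwann-cell genes took 0.00170% to 0.00404% in TG and 0.00124% to 0.00254% in WT, with 5 of 6 tested genes above 0, a median of 1.12 and 4 at an unadjusted p under 0.05. Lymphoid genes took at most 0.000979% of counts in any library. No marker of these lists was at 0 in all libraries. Of 10 beta-cell genes, 9 were below 0. The part of these cells in the values of Plk2, Perp, Bcl2l11 and the other members was not tested.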

How the data were processed

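Base calls were made with CASAVA 1.8 and reads aligned with HISAT2 to GRCm38 (mm10), per the submitters' processing notes (counter, strandedness and gene annotation: not given in the sources consulted). The authors deposited raw counts per gene in whole numbers in 2 pairs of tables, and FPKM, which per the deposited values is the count over gene length times 1 constant per library. The NEBNext Ultra kit is named in the labels. Counts were joined on gene ID and tested by the quasi-likelihood F-test of edgeR 4.0.16 under R 4.3.3 (TMM, filterByExpr grouped by genotype, Benjamini-Hochberg over the 16072 genes that passed), with table and genotype as terms. The SE is the absolute log2 fold change over the square root of F. FPKM served only to compare levels between genes. The code was tested on simulated data.

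Members and lists were chosen with earlier results of these data known. Members are given in full if their unadjusted p was under 0.05, if they passed without TG 2, or if they are Trp53, Mdm2, Bax, Bcl2, Bcl2l1, Mcl1 or Bbc3; outside the set, the 4 genes per list and direction with the smallest unadjusted p under 0.05, with Cdkn1a and Mdm4, are named, and 1 further gene of that rule is not reported here. The values given in full for the other members, and the test of the table term, were chosen after the data were seen. Alternatives were DESeq2 1.42.0, limma-voom 3.58.1, RLE scaling, no or a stricter filter (10 counts in every library), no table term, each table alone and libraries left out. A chi-square comparison of counts found no duplicated library. Its value per degree of freedom was lowest between TG 2 and WT 1, at 31.6. TG 2 stood at 61.0 from WT 2 and 209 from WT 3, against 335 from TG 1 and 407 from TG 3. The cause was not tested. By GENCODE M21, 8 of the 33 genes (Bad, Bak1, Bax, Bcl2, Bcl2l2, Bid, Casp9 and Diablo) share 1.81% to 40.9% of their exon bases with other genes, so their counts are uncertain. Of these, Bad, Bax and Diablo have another span in the deposited annotation, so their shares there may differ. The deposited length is 869 bases for Bax and 6929 for Diablo, against 1576 and 6166 exon bases in GENCODE M21. Per-length values use the deposited length. Seed matches used GENCODE M21 transcripts of GRCm38.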

Additional observations from a re-analysis of the deposited data

Results flagged for a closer look

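Bik and Bak1 had TG libraries on opposite sides of WT in the 2 tables, a difference between tables that was not tested in that form. For Bak1, TG 1 and TG 2 lay at log2 distances of -0.15 and -0.23 from the mean WT level of the first table, and TG 3 at 0.26 from WT 3. For Bik, TG 1 and TG 2 lay at 0.073 and 0.30 and TG 3 at -0.058. The interaction of table and genotype in edgeR had an adjusted p of 0.9999 for both.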

How the results depend on the processing

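No paired analysis was possible because the labels give TG and WT no shared replicate numbers; replicates were numbered in accession order, and the deposited table was the batch term. None of the 33 genes passed in edgeR, with RLE scaling, a stricter filter, no table term, the first table only or limma-voom. Genes called higher and lower numbered 616 and 136 in DESeq2, 1300 and 372 without the filter, and 1146 and 451 without TG 2 and WT 1 together, with 1, 2 and 3 members called as higher and 0 as lower. Leaving out 1 library gave 0 to 1461 genes higher and 0 to 727 lower, and 0 to 2 members higher; the upper ends are those without TG 2, and the cause was not tested. Without the filter 137 genes, and 0 members, showed an interaction of table and genotype. Plk2 stayed between 0.99 and 1.47, with adjusted p from 1.21e-07 to 0.924, and Pmaip1 between 0.50 and 2.28.

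The sign held in all 15 alternatives for 22 of the 32 tested genes and turned for 10, each with a small fitted value except Phlda3. With 1 library left out, Trp53 ranged from -0.21 to 0.14, Mdm2 from -0.090 to 0.23, Phlda3 from -0.051 to 0.89, Sesn1 from -0.12 to 0.075, Bak1 from -0.20 to 0.023, Bcl2l2 from -0.15 to 0.091, Casp9 from -0.053 to 0.17, Apaf1 from -0.14 to 0.20 and Diablo from -0.30 to 0.0049. Values that kept their sign also moved: Bcl2 ranged from 0.042 to 0.60, Eda2r from 0.047 to 0.41, Bmf from 0.0083 to 0.42, Tnfrsf10b from 0.25 to 0.83, Bid from -0.79 to -0.32, Zmat3 from -0.52 to -0.14, Bcl2l1 from -0.43 to -0.13 and Bax from -0.26 to -0.036. With the stricter filter Trp53 lay at 0.00038, Sesn1 at 0.0059 and Bcl2l2 at 0.0040. With the first table only Trp53 lay at 0.00043, Bcl2l2 at 0.092 and Casp9 at -0.048. In the second table alone Sesn1 lay at 0.22, Bik at -0.051, Bak1 at 0.27 and Apaf1 at -0.0085. Without the table term Bcl2l2 lay at 0.0057. Without TG 2 and WT 1 together Trp53 lay at 0.057 and Bak1 at 0.059.

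The median member had 526 to 926 counts per TG library and 359 to 487 per WT library. With 3 libraries per genotype, and 1 of each in the second table, differences well beyond 1 SE could go uncalled. In the main edgeR fit Plk2 did not pass at a log2 fold change of 1.18 (SE 0.22), and 0 of 16072 genes did.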
